A study of Homo sapiens with 6 samples.

Results

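Bone morphogenetic protein (BMP) signalling and the inhibitor of DNA binding (ID) genes were examined through 10 genes chosen by symbol: ID1, ID2, ID3, SMAD1, SMAD5, SMAD6, BAMBI, BMPR1A, BMPR2 and BMP4. Each matched 1 row of a count table of 57773 genes, and all 10 were among the 15848 genes abundant enough to test. The libraries came from A549, an established human lung adenocarcinoma line with alveolar epithelial features, grown in medium with fetal bovine serum. Cells received recombinant human surfactant protein D (rhSP-D), a secreted carbohydrate-binding collectin of the airspace, at 10 µg/ml for 48 h, or for the same time the vehicle, an equal volume of the buffer used to elute the protein. Each group held 3 samples of polyadenylated RNA, all from this 1 line, and the labels do not say whether these were grown apart, so each p-value is set against sample-to-sample spread that could be technical in origin.

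BMP ligands bind a complex of type I and type II serine/threonine kinase receptors on the cell surface. The activated type I receptor phosphorylates the receptor SMADs 1, 5 and 9, which join SMAD4, enter the nucleus and turn on targets. The ID genes are among the most direct of these targets in many epithelia, and TGF-beta, serum and growth factors can induce them too. ID proteins carry a helix-loop-helix domain but no DNA-binding region, and they hold E proteins in dimers that cannot bind DNA. SMAD6 and BAMBI are feedback inhibitors that BMP signalling itself can induce.

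Of the 10 genes 3 rose, ID1, ID2 and ID3, none fell and 7 did not pass the test. The 10 were chosen with earlier results of these data known. Their numbers beside the shares of all genes are therefore a description and no test. The ID genes rose by 15.7% to 20.6%, while the ligand, the receptors, the receptor SMADs and both inhibitors stayed within intervals that included no change. With trends on transcript length and GC content removed, described below, the rises of ID1 and ID3 were smaller, 6.61% and 7.97%. With the libraries thinned to the depth of the shallowest ID2 no longer passed (edgeR adjusted p = 0.132). The thinning was a random draw of counts that was not repeated. Among all genes tested, 9.31% were higher, 6.63% were lower and 15.9% changed in either direction (edgeR quasi-likelihood test, Benjamini-Hochberg adjusted p under 0.05). With libraries scaled to their totals alone, 856 genes were higher and 1961 lower, in place of 1475 and 1051, and the 3 ID genes still passed. The 3 rhSP-D values lay wholly above the 3 vehicle values for the same 3 genes and overlapped them for the other 7, against 16.2% of all genes wholly above and 15.4% wholly below. The median log2 change of the 10 genes was 0.03, beside -0.006 over all genes tested.

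Sequence upstream of the ID genes is shown because these genes moved together, with that of BAMBI and SMAD6, inhibitors of the same pathway, for comparison. Each run holds the 250 bases before the RefSeq start site, 5′ to 3′ on the strand of the gene (RefSeq, GRCh38.p14), and all 10 genes had at least 1 such window. The windows are chr20:31605039-31605288 on the plus strand for ID1, chr2:8681806-8682055 on the plus strand for ID2, chr1:23559502-23559751 on the minus strand for ID3, chr10:28677271-28677520 on the plus strand for BAMBI and chr15:66701986-66702235 on the plus strand for SMAD6. Capitals mark 4 motifs described for SMAD proteins, searched on both strands: the GC-rich boxes GGCGCC and GGAGCC, the SMAD box CAGAC and its palindromic form GTCTAGAC, which do not overlap one another in these windows.
ID1: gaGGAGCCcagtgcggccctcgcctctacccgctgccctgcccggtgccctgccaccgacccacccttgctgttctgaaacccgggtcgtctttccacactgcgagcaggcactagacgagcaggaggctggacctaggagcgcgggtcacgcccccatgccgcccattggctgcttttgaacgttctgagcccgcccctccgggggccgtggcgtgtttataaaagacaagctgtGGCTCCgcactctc
ID2: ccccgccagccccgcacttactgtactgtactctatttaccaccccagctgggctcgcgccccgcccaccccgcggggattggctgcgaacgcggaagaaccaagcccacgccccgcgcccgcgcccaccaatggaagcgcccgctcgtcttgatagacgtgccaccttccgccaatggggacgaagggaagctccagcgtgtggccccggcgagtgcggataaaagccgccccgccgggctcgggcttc
ID3: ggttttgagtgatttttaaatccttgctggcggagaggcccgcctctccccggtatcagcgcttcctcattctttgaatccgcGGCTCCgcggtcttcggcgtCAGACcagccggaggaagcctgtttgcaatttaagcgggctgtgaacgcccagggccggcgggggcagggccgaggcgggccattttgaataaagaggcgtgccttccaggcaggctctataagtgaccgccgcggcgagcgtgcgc
BAMBI: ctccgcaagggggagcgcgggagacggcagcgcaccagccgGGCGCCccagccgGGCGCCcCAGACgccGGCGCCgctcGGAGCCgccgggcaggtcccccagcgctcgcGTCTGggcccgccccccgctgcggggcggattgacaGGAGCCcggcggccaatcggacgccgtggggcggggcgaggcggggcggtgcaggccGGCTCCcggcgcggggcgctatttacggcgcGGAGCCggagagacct
SMAD6: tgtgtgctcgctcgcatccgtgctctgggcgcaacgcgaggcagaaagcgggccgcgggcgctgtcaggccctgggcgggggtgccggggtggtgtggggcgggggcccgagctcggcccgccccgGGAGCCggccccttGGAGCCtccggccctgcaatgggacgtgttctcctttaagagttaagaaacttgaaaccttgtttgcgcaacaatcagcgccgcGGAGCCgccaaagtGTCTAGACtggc

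GGCGCC was found in no window of the ID genes and 3 times in that of BAMBI, and 16.4% of all 35116 windows of this length held it. GGAGCC was found 2 times upstream of ID1, 1 time upstream of ID3, 4 times upstream of BAMBI and 3 times upstream of SMAD6, and 30.6% of all windows held it. CAGAC was found 1 time upstream of ID3 and 2 times upstream of BAMBI (38.0% of all windows), and the palindrome only upstream of SMAD6 among the 10 genes (0.182% of all windows). The ID2 window held none of the 4. The 3 genes that rose shared no motif of this set in these windows. BAMBI, whose window held the most matches of the 5 shown, had a log2 change of 0.00. Its window was also the richest in GC, at 81.2% beside 62.0% to 69.2% for the others shown. The shares of all windows are not matched for GC content. Sequence further upstream was not searched, and whether SMAD proteins act on any of these genes was not tested. A match describes letters only, and a missing match says only that the letters are not in this window.

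ID1 (ENSG00000125968, GRCh38 chromosome 20, 31605283 to 31606515, plus strand) was the most abundant of the 10 genes. Levels are given in CPM, the usual scaling of a gene's count to the size of its library, here after TMM normalisation. Vehicle replicates 1 to 3 had 333, 325 and 325 CPM of ID1, and rhSP-D replicates 1 to 3 had 388, 379 and 375 CPM. Every rhSP-D library lay above every vehicle library, and the gap between the groups was wider than the range within either. The vehicle mean was 327.5 ± 4.37 CPM and the rhSP-D mean 380.5 ± 6.48 CPM (SD, n = 3). ID1 thus rose by 16.3%, with a 95% interval from 12.9% to 19.9% and a log2 change of 0.22 ± 0.02 (SE, edgeR adjusted p = 1.5e-08).

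ID3 (ENSG00000117318, chromosome 1, 23557918 to 23559794, minus strand) encodes a smaller protein of the same family. It was measured at 214, 209 and 217 CPM in the vehicle libraries and at 247, 245 and 249 CPM in the rhSP-D libraries. The groups did not overlap, and the rhSP-D libraries lay close together. From 213 ± 3.95 to 247 ± 1.96 CPM (SD, n = 3) ID3 rose by 15.7%, with an interval from 11.9% to 19.6% and a log2 change of 0.21 ± 0.02 (SE, edgeR adjusted p = 1.77e-07).

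ID2 (ENSG00000115738, chromosome 2, 8678845 to 8684453, plus strand) was far less abundant. It had 26.3, 25.6 and 27.1 CPM in vehicle and 31.1, 30.75 and 33.7 CPM in rhSP-D. All rhSP-D values were again the higher ones, with replicate 3 at the top. ID2 went from 26.35 ± 0.78 to 31.8 ± 1.6 CPM (SD, n = 3) and rose by 20.6%, a log2 change of 0.27 ± 0.06 (SE, edgeR adjusted p = 0.00113), and its interval from 11.2% to 30.8% contained the changes of ID1 and ID3. Its exons overlap those of the antisense gene ID2-AS1 over 38 nt of 2205 nt, and ID2-AS1 had a mean of 10.3 counts per library. The strand setting of the counting is not given in the sources used here.

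Summed over ID1, ID2 and ID3, the level was 573, 559 and 569 CPM in vehicle and 665, 655 and 657 CPM in rhSP-D. ID1 made up 57.75% of this sum in vehicle and 57.73% in rhSP-D, so its share of the 3 hardly differed between the groups. The sum is not divided by length, and ID1 is the shortest of the 3. The count ratio of ID1 to ID3 was 1.55, 1.55 and 1.5 in vehicle and 1.57, 1.55 and 1.51 in rhSP-D, values that overlapped. ID4, the remaining family member, was named after its values were seen. Its vehicle mean was 9.89 ± 0.26 CPM and its rhSP-D mean 10.2 ± 0.74 CPM (SD, n = 3), and it did not pass (log2 change 0.04 ± 0.10 SE, edgeR adjusted p = 0.839). Its interval, from -10.4% to 18.0%, includes the changes of ID1 and ID3.

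**Figure D1:**
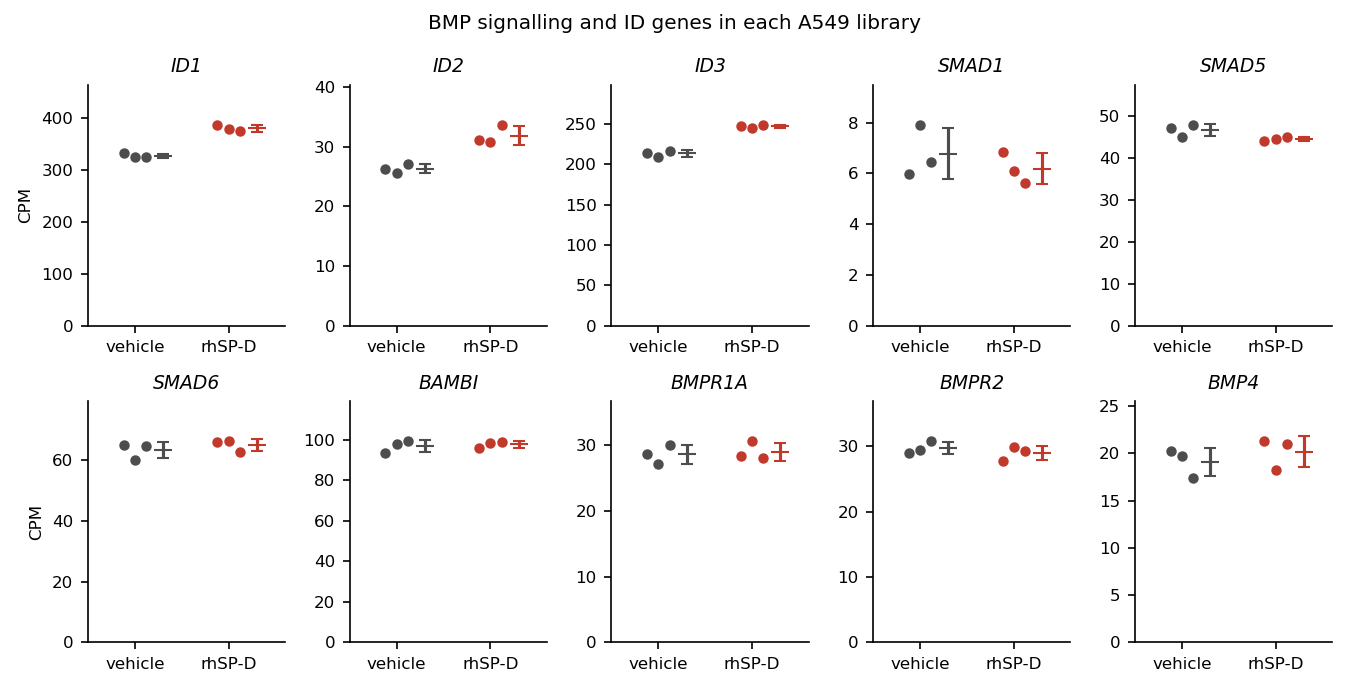
Level of each of the 10 genes in CPM (y axis from 0, a scale of its own in each panel) in the 3 vehicle libraries (grey) and the 3 rhSP-D libraries (red); points are libraries, replicates 1 to 3 from left to right, and bars are the mean ± SD. The rhSP-D points of ID1 (375 to 388 CPM), ID2 and ID3 lie above all vehicle points, and those of the other 7 genes overlap them.

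BAMBI (ENSG00000095739, chromosome 10, 28677342 to 28682939, plus strand) encodes a decoy receptor that lacks the kinase domain. Its vehicle libraries had 93.5, 98.0 and 99.2 CPM and its rhSP-D libraries 95.7, 98.5 and 98.6 CPM. The groups overlapped almost fully, with a log2 change of 0.00 ± 0.03 (SE, edgeR adjusted p = 0.958) and an interval from -4.30% to 5.11%. SMAD6 (ENSG00000137834, chromosome 15, 66702228 to 66782848, plus strand), which blocks the receptor SMADs, had 65.0, 60.2 and 64.6 CPM in vehicle and 65.9, 66.3 and 62.7 CPM in rhSP-D. Its log2 change was 0.04 ± 0.04 (SE, edgeR adjusted p = 0.558), with an interval from -2.86% to 9.07%. The intervals of BAMBI and SMAD6 ended below the lowest bound of the ID genes, 11.2%, but after the correction for length and GC content that of SMAD6, up to 8.21%, overlapped that of ID1, from 3.58%.

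The same levels can be read as ratios of counts within each library, which do not depend on how libraries are scaled. The ratio of ID1 to BAMBI was 3.56, 3.31 and 3.28 in vehicle and 4.05, 3.85 and 3.80 in rhSP-D. That of ID1 to SMAD6 was 5.12, 5.39 and 5.03 in vehicle and 5.88, 5.72 and 5.97 in rhSP-D. In both, every rhSP-D library was above every vehicle library. The pairs were chosen after the values were seen, the ratios carry any difference that goes with length and GC content, and no test was run on them, so they restate the levels above and add no evidence.

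The receptor SMADs were lower on average in rhSP-D but did not pass. SMAD5 (ENSG00000113658, chromosome 5, 136132845 to 136188747, plus strand) was at 47.0, 45.0 and 47.8 CPM in vehicle and at 44.0, 44.3 and 45.0 CPM in rhSP-D. The rhSP-D values met the vehicle range only at its lower end, and the log2 change was -0.07 ± 0.04 (SE, edgeR adjusted p = 0.339), with an interval from -10.6% to 1.59%. SMAD1 (ENSG00000170365, chromosome 4, 145481194 to 145558079, plus strand) was the scarcest of the 10, with 69 to 142 counts in vehicle and 112 to 175 in rhSP-D. It had 5.97, 7.92 and 6.46 CPM in vehicle and 6.83, 6.11 and 5.62 CPM in rhSP-D, values that overlapped widely. Its log2 change was -0.14 ± 0.13 (SE, edgeR adjusted p = 0.552), and at this depth its interval, from -24.7% to 9.72%, was wide enough to hold a fall as large as the rises of the ID genes. Without vehicle replicate 2 its log2 change was -0.007. Exons of SMAD5 overlap those of SMAD5-AS1 over 610 nt, and this antisense gene had 0 to 7 counts per library. Those of SMAD1 overlap SMAD1-AS1, which was listed at 0 in all libraries.

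Both receptors were measured at similar levels in the groups. BMPR1A (ENSG00000107779, chromosome 10, 86756601 to 86932838, plus strand), a type I receptor, had 28.6, 27.2 and 30.0 CPM in vehicle and 28.3, 30.6 and 28.1 CPM in rhSP-D. The highest value came from rhSP-D and the lowest from vehicle, but the groups overlapped, and the log2 change was 0.01 ± 0.06 (SE, edgeR adjusted p = 0.912), with an interval from -7.05% to 9.71%. BMPR2 (ENSG00000204217, chromosome 2, 202376936 to 202567751, plus strand), the type II receptor dedicated to BMP ligands, had 28.99, 29.4 and 30.8 CPM in vehicle and 27.8, 29.8 and 29.3 CPM in rhSP-D. The groups overlapped (log2 change -0.05 ± 0.06 SE, edgeR adjusted p = 0.653), with an interval from -10.5% to 4.85%. The processed pseudogenes BMPR1APS1 and BMPR1APS2, which can share reads with BMPR1A, had at most 4 counts in any library.

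BMP4 (ENSG00000125378, chromosome 14, 53949736 to 53958761, minus strand), a ligand measured here only as RNA, was at 20.2, 19.7 and 17.4 CPM in vehicle and at 21.3, 18.3 and 21.0 CPM in rhSP-D. Of the rhSP-D libraries, replicates 1 and 3 lay above all vehicle libraries and replicate 2 lay among them. The log2 change of 0.09 ± 0.08 (SE, edgeR adjusted p = 0.467) did not pass, and its interval from -4.26% to 19.0% includes both no change and the change of ID1.

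Per kilobase of exon, where levels can be compared between genes, the 10 genes spanned a wide range in vehicle. ID1 stood highest at 266 ± 3.54 CPM per kb, followed by ID3 at 119 ± 2.20, BAMBI at 41.9 ± 1.31 and ID2 at 11.95 ± 0.35 CPM per kb (SD, n = 3). SMAD6 (7.39 ± 0.31), BMP4 (6.20 ± 0.49) and SMAD5 (5.16 ± 0.16 CPM per kb) came next. BMPR1A and BMPR2, at 2.506 ± 0.12 and 2.497 ± 0.08 CPM per kb, did not differ beyond their spread, and SMAD1 was lowest at 1.12 ± 0.17 CPM per kb. Every other neighbouring pair in this order was separated by more than the SD of either gene. The order was the same in rhSP-D, with ID1 at 309 ± 5.26 and SMAD1 at 1.02 ± 0.10 CPM per kb.

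The genes around these 10 in the pathway were read from a list of 56 others, arranged by role, of which 40 were abundant enough to test. Of the 40, 2 rose (FSTL3 and NBL1), 2 fell (SMAD4 and TCF12) and 36 did not pass, beside 9.31% higher and 6.63% lower among all genes. The groups were wholly separate for 8 of the 40, 3 with rhSP-D above and 5 with rhSP-D below, against 31.5% of all genes. The median log2 change of the list was 0.002. This list too was chosen with earlier results of these data known.

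Of the ligands 4 were tested and none passed. BMP2, the most abundant of them per kilobase, had a vehicle mean of 18.8 ± 0.43 CPM and an rhSP-D mean of 19.3 ± 0.83 CPM (SD, n = 3), with an interval from -6.79% to 13.7%. None of 6 receptors and co-receptors passed. ACVR1, a type I receptor and the most abundant of these per kilobase, was at 18.5 ± 0.86 and 18.1 ± 2.05 CPM, and its log2 change of -0.05 turned to 0.05 without rhSP-D replicate 1.

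Among 10 tested extracellular antagonists 2 rose. FSTL3 (ENSG00000070404, chromosome 19, 676365 to 683399), a follistatin-like protein that binds activins and related ligands, was at 363, 363 and 358 CPM in vehicle and at 417, 405 and 405 CPM in rhSP-D. It rose by 13.3% without overlap of the groups (log2 change 0.18 ± 0.02 SE, edgeR adjusted p = 1.99e-07). NBL1 (ENSG00000158747, chromosome 1, 19596979 to 19658456), a secreted BMP antagonist of the DAN family, rose by 12.3%, from 36.4 ± 2.55 to 40.8 ± 1.93 CPM (SD, n = 3). It passed narrowly (edgeR adjusted p = 0.0324), and without vehicle replicate 3 its log2 change went from 0.17 to 0.10 (adjusted p = 0.297). Leaving out vehicle replicate 1, rhSP-D replicate 1 or rhSP-D replicate 3 also left it above the threshold of 0.05, at adjusted p-values of 0.0503, 0.0531 and 0.173. NBL1 shares 552 nt of exon with the readthrough gene MINOS1-NBL1, so its count is uncertain.

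Of the other SMADs, SMAD4 (ENSG00000141646, chromosome 18, 51028394 to 51085045), the partner that all receptor SMADs share, was at 51.0, 47.5 and 46.4 CPM in vehicle and at 43.5, 43.1 and 43.9 CPM in rhSP-D. The groups did not overlap, and vehicle replicate 1 was the highest library. SMAD4 fell by 9.29% (log2 change -0.14 ± 0.05 SE, edgeR adjusted p = 0.0340), a call that held only without vehicle replicate 3 when libraries were left out in turn (adjusted p of 0.151 without vehicle replicate 1, 0.0658 without vehicle replicate 2, and 0.0936, 0.0809 and 0.0622 without rhSP-D replicates 1, 2 and 3). SMAD7, an inhibitory SMAD induced by both TGF-beta and BMP, was at 27.3 ± 1.27 and 29.6 ± 1.52 CPM (SD, n = 3) and did not pass (log2 change 0.11 ± 0.06 SE, edgeR adjusted p = 0.227). Its interval from -0.72% to 17.1% reached the changes of ID1 and ID3.

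None of 9 intracellular regulators passed. FKBP1A, which keeps type I receptors from signalling without ligand and was the most abundant of these per kilobase, was at 261 ± 5.99 and 265 ± 3.07 CPM (SD, n = 3), with an interval from -1.88% to 4.76%. Of the targets other than ID1, ID2 and ID3, 5 were tested and none passed. The most abundant per kilobase was MSX2, a homeobox transcription factor, at 15.7 ± 1.45 and 16.5 ± 1.28 CPM and with an interval from -7.11% to 17.7%.

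The E proteins, which ID proteins bind, gave 1 change among 3 tested genes. TCF12 (ENSG00000140262, chromosome 15, 56918623 to 57299281), also called HEB, was at 67.1, 68.3 and 69.1 CPM in vehicle and at 57.3, 55.02 and 59.1 CPM in rhSP-D. It fell by 16.3% without overlap of the groups (log2 change -0.26 ± 0.04 SE, edgeR adjusted p = 2.74e-05). TCF3, which encodes E12 and E47, was at 72.7 ± 1.71 and 75.8 ± 3.59 CPM (SD, n = 3) and did not pass (adjusted p = 0.325).

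**Figure D2:**
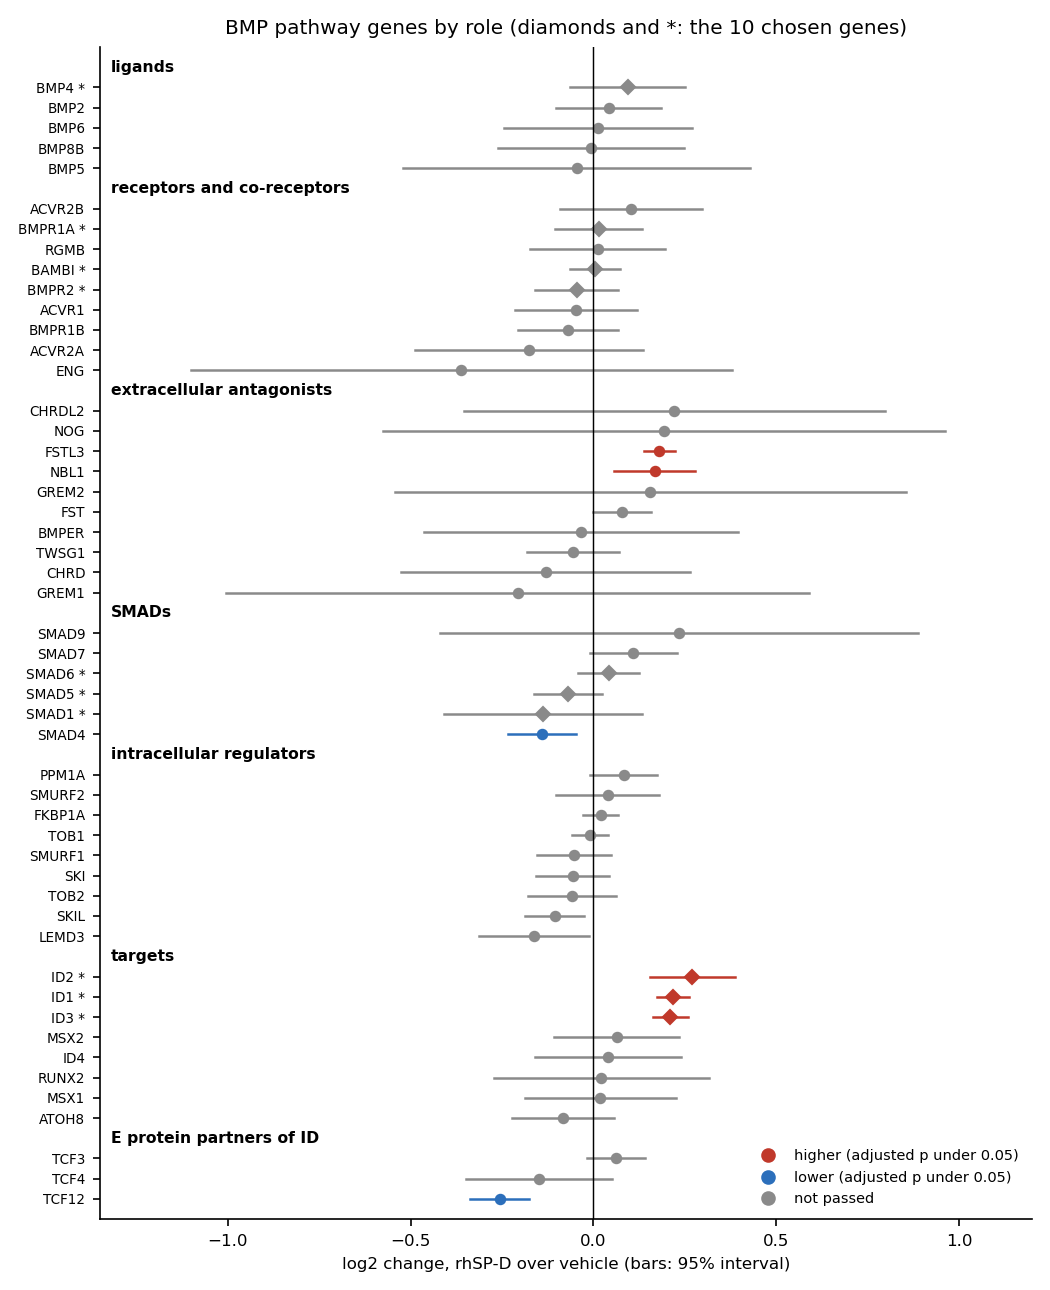
Log2 change of rhSP-D over vehicle (x axis) with its 95% interval for the 50 tested genes of the pathway, grouped by role; diamonds and asterisks mark the 10 chosen genes, and colour shows genes that were higher (red), lower (blue) or did not pass (grey). ID1, ID2, ID3, FSTL3 and NBL1 are the red points and SMAD4 and TCF12 the blue ones, and the scarcest genes have the widest bars.

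Length and base composition of the transcripts moved with these changes. With the genes tested split into 5 equal groups by exonic length, the median log2 change was 0.09 in the shortest group and -0.07 in the longest. In 5 groups by transcript GC content it was -0.07 in the lowest and 0.06 in the highest. The ID genes were short, at 1233 nt (ID1), 1797 nt (ID3) and 2205 nt (ID2), and had a GC content of 58.6%, 57.2% and 53.3%. Their log2 changes exceeded the median of every one of these length and GC groups. Of all genes tested, 91.5% had a lower log2 change than ID1, 93.9% than ID2 and 90.9% than ID3. The medians take length and GC content separately, whereas the ID genes were both short and at the GC-rich end. Calls of higher were also more common in the groups that hold the ID genes. In the shortest group 16.6% of genes were higher, beside 9.31% of all genes tested. By GC content it was 16.8% in the highest group, with ID1, and 13.2% in the next, with ID2 and ID3. BAMBI, in the shortest group at 2314 nt and 51.0% GC, and SMAD6, in the group of highest GC content but 8563 nt long, had log2 changes of 0.00 and 0.04. The receptors and receptor SMADs were long, 6058 to 11900 nt, with a GC content of 36.9% to 40.6%. TCF12, at 9446 nt and 40.8% GC, lay at the same end.

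**Figure D3:**
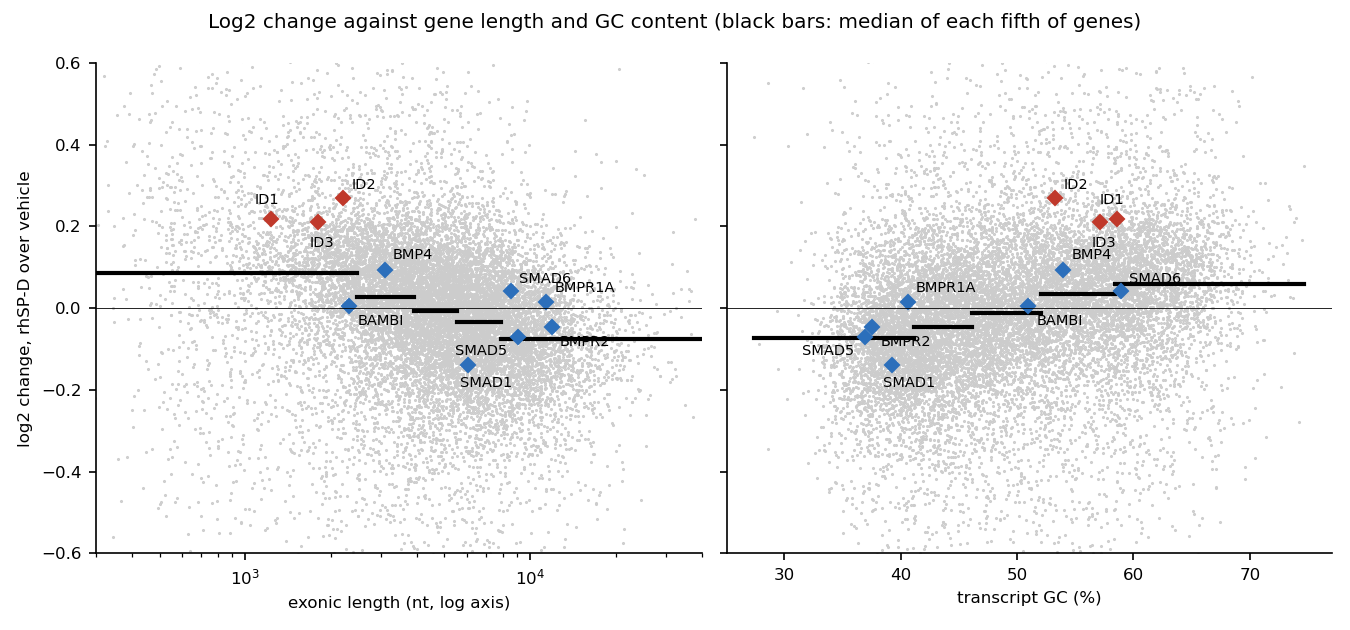
Log2 change of rhSP-D over vehicle (y axis) against exonic length on a log axis (left) and transcript GC content in percent (right) for 15347 tested genes (grey; 364 lie beyond the y range and 393 outside the left panel); black bars are the median of each of 5 equal groups of genes, red diamonds are ID1, ID2 and ID3 and blue diamonds the other 7 genes. The medians go from 0.09 in the shortest to -0.07 in the longest group, and the ID genes lie above the bars at the short and GC-rich end.

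With trends on length and GC content removed from each library, the rise of the ID genes was smaller and still passed with TMM scaling. With the same correction and library totals, chosen after seeing the data, ID1 (log2 change 0.051, edgeR adjusted p = 0.107) and ID2 (0.17, edgeR adjusted p = 0.0632) did not pass and ID3 did (0.070, edgeR adjusted p = 0.0484). The split over all genes then turned from 1047 higher and 515 lower to 527 higher and 1023 lower. With TMM scaling, ID1 had a log2 change of 0.09 ± 0.02 (SE, edgeR adjusted p = 0.00236), an increase of 6.61% in place of 16.3%. ID3 was at 0.11 ± 0.02 (7.97%, edgeR adjusted p = 0.00126) and ID2 at 0.21 ± 0.06 (15.3%, edgeR adjusted p = 0.0164), while 6.82% of all genes were higher and 3.36% lower under this correction. None of the other 7 genes passed. BAMBI was at -0.04, with an interval from -7.25% to 1.6% that still ended below that of ID1, from 3.58% to 9.73%, but the interval of SMAD6, from -3.26% to 8.21%, then overlapped it. BMPR1A moved from 0.01 to 0.11 (edgeR adjusted p = 0.248), and BMPR2 and SMAD5 turned from negative to 0.06 and 0.02. TCF12 (log2 change -0.16) and FSTL3 (0.10) also passed after the correction, and SMAD4 (-0.04, adjusted p = 0.714) and NBL1 (0.10, adjusted p = 0.293) did not.

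**Figure D4:**
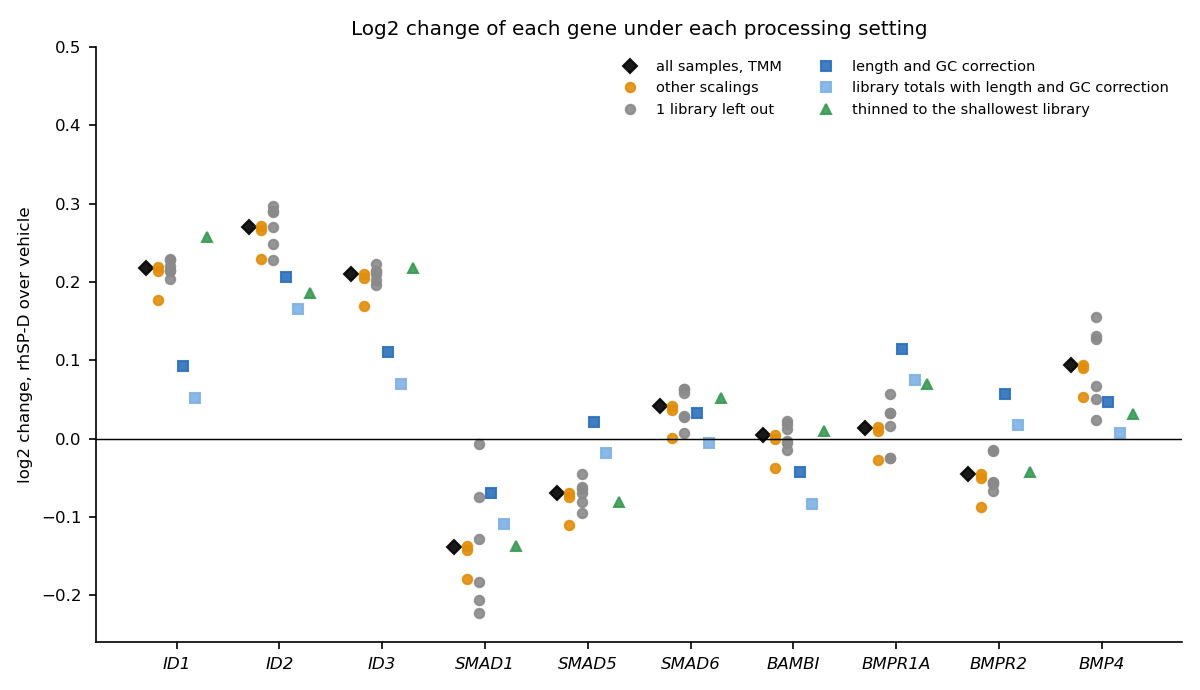
Log2 change of rhSP-D over vehicle (y axis) of each of the 10 genes (x axis) with all samples and TMM scaling (black), other scalings (orange), each library left out in turn (grey), the length and GC correction (dark blue), that correction with library totals (light blue) and libraries thinned to the shallowest (green). ID1, ID2 and ID3 are above 0 in every setting shown, with ID1 between 0.05 and 0.26, BMP4 also stays above 0 and SMAD1 below it, and the other 5 have points on both sides.

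By a rule of likeness, Pearson's r of log2 CPM with ID1 over the 6 libraries among 9813 other genes of at least 10 CPM, the 3 genes most like ID1 were NDUFB2, a subunit of respiratory complex I, MRPS26, a mitochondrial ribosomal protein, and LSM4, a splicing factor subunit. Each had an r of 0.998, a description of 2 groups of libraries and no test, and 941 of the 9813 genes (9.59%) had an r above 0.9. Their log2 changes were smaller than that of ID1 (0.218), at 0.147 for NDUFB2, 0.086 for MRPS26 and 0.125 for LSM4. MRPS26 did not pass (edgeR adjusted p = 0.0636).

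Total counts ranged from 11396193 in vehicle replicate 1 to 26030880 in rhSP-D replicate 1. Of the 5 epithelial markers KRT8 and KRT18 were abundant and carried nearly all of the sum, 9282 to 9400 CPM in vehicle and 9489 to 9669 CPM in rhSP-D, while EPCAM (1.47 to 2.56 CPM) and KRT19 (1.29 to 2.29 CPM) were scarce in all libraries. KRT18 passed together with the ID genes, 3.45% higher (edgeR adjusted p = 0.0131). No other epithelial marker passed. KRT8 was 2.01% and EPCAM 6.09% higher, while CDH1 was 4.35% and KRT19 15.3% lower. The rhSP-D values lay wholly above those of vehicle for KRT8 and wholly below them for CDH1. The 3 endothelial markers summed to at most 0.117 CPM, the 6 fibroblast markers to 10.8 to 14.9 CPM in vehicle and 13.4 to 14.2 CPM in rhSP-D with DCN at 0, and the 5 leukocyte markers to 84.6 to 90.6 and 93.0 to 98.4 CPM. Nearly all of the leukocyte sum was CD68, a lysosomal protein, with PTPRC at 0 or 1 count and MS4A1 at 0. CD68 passed too, 8.94% higher without overlap of the groups (edgeR adjusted p = 0.0161). The part of KRT18 or CD68 in the ID results was not tested. In bulk RNA, a change in the share of cells that express a gene and a change in its RNA per cell cannot be told apart.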

How the data were processed

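Counts per gene of 6 polyadenylated RNA libraries of A549 cells were analysed, 3 given rhSP-D and 3 vehicle, grouped by their titles. Per the submitters' processing notes, the authors used cutadapt, STAR 2.7.0a and featureCounts 2.0.0 with build GRCh38; for the annotation release, the strand setting and reads with several matches, the sources used here give nothing. The deposited values are raw counts, as whole numbers. Total counts were 11396193 to 26030880, and the depth limits the precision of the scarce genes. Chi-square per degree of freedom was 1.90 to 2.13 between libraries of a group and 3.71 to 5.77 between groups, so none was a copy.

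Low genes were removed with filterByExpr (at least 10 counts in enough libraries and 15 in total), and the rest scaled by TMM and tested with a robust quasi-likelihood fit in edgeR 4.0.16 (R 4.3.3), 2-sided, with Benjamini-Hochberg adjustment over 15848 genes; rose, fell or changed means an adjusted p under 0.05. SEs come from the test statistic, and 95% intervals from its t distribution. Coordinates, exonic length (merged exons) and GC content (longest transcript) are from GENCODE 29, which holds 52338 of the 57773 genes and need not match the authors' annotation. The correction for length and GC content enters natural splines with 5 degrees of freedom as offsets for each library. Alternatives used DESeq2 1.42.0, limma 3.58.1 and other settings. The procedure was tested on simulated data in which all genes had the same spread between samples. It recovered 14% of changes of 1.1-fold, 50% of 1.2-fold, 66% of 1.5-fold and 88% of 2-fold. Of its calls 3.54% were false. A gene that did not pass may therefore still have changed, and its own 95% interval gives the range. The recovered shares pool genes of all abundances and do not apply to any single gene.

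The 10 genes, the pathway list and the markers were chosen with earlier results of these data known. Genes named from the list were those that passed and the most abundant of each role per kilobase; the 3 genes most like ID1 were also named. One listed endothelial marker had no matching symbol.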

Additional observations from a re-analysis of the deposited data

How the results depend on the processing

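The rises of ID1, ID2 and ID3 kept their direction under all 17 alternatives tried for each gene, with log2 changes from 0.05 to 0.26, 0.17 to 0.30 and 0.07 to 0.22. ID3 passed in all of them. Library totals together with the length and GC correction, a setting added after seeing the data, left 1 of the 10 genes called, ID3, with ID1 at 0.051 (adjusted p = 0.107) and ID2 at 0.17 (adjusted p = 0.0632). Thinning to the shallowest library, a random draw that was not repeated, left 2 called, with ID2 at 0.19 (edgeR adjusted p = 0.132). With 1 library left out the number called among the 10 was 3 in each case.

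Among genes that did not pass, signs turned by more than the SE under the length and GC correction for SMAD5 (0.021), BMPR2 (0.057), BAMBI (-0.043) and FKBP1A (-0.0090), under library totals for BAMBI (-0.037) and FKBP1A (-0.021), and under both for SMAD6 (-0.0060), BAMBI (-0.083), BMPR2 (0.018), FKBP1A (-0.049) and TCF3 (-0.011). ACVR1 ranged from -0.11 to 0.052 with 1 library left out, turning without rhSP-D replicate 1. Sign changes of BAMBI, BMPR1A, BMP2 and MSX2 under other settings moved the value by less than its SE. The causes were not tested.

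Over all genes 2526 changed, 58.4% of them higher. Library totals alone gave 2817, 30.4% higher, and moved the median of all genes by -0.04. The count was 1534 with DESeq2, which gave an adjusted p-value to only 7859 genes. It was 1562 with the length and GC correction and 1550 with that correction and library totals. Thinning, by the same draw, gave 1508 and an adjusted p under 0.01 gave 1465. With 1 library left out the count was 1678 to 2182, lowest without rhSP-D replicate 1. Of the 40 other pathway genes 4 changed, against 2 at adjusted p under 0.01 and 2 to 3 with 1 library left out. DESeq2 called 2 of the 20 to which it gave an adjusted p-value.

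Deviations of samples with the same replicate number correlated at -0.08, 0.0008 and -0.14, and no sample correlated best with its own number. No shared effect of replicate number was thus visible. Weak correlations cannot show whether samples of the same number were set up together, and the labels do not say. With the replicate block 2319 genes changed, the same 3 of the 10 were called, and 3 of the pathway list, NBL1 missing the threshold (adjusted p = 0.0508). Depth limits SMAD1 and the scarcest ligands and antagonists.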
